A study of Rattus norvegicus with 60 samples.

Results

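Astrocytes are the star-shaped support cells of the brain. They take up the glutamate that neurons release and return it as glutamine, carry water and potassium between synapses and blood vessels, and are joined to each other by gap junctions. When tissue is injured they become reactive, and GFAP, the protein of their intermediate filaments, is the usual marker of that state. Here 9 genes that mark astrocytes were followed in rat frontal cortex: Gfap, Aqp4, Slc1a2, Slc1a3, Gja1, Aldh1l1, S100b, Glul and Aldoc. They were chosen by symbol, and every probe set that the array annotation gives 1 of these symbols alone was used, which came to 18 of 31042 probe sets.

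The samples were 60 arrays, 1 for the frontal cortex of each adult male Long-Evans rat, aged 62 to 64 days after birth. The tissue was taken 6 h after a single dose by gavage in corn oil. Corn oil alone was given to 12 rats (vehicle), and 8 rats each received deltamethrin at 0.3, 1 or 3 mg/kg or permethrin at 1, 10 or 100 mg/kg. Both compounds are pyrethroid insecticides, which act on voltage-gated sodium channels; deltamethrin carries an α-cyano group that permethrin lacks. Values are log2 intensities, normalised together over all arrays by robust multi-array average (RMA), so a difference of 1 is a doubling. With 8 rats in a dose group, the precision of a difference is set by the number of rats and the spread between them. Whole cortex was measured, so fewer astrocytes and less of a transcript in each astrocyte cannot be told apart.

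The members serve different roles. Gfap, the filament gene, is read by 1 probe set (1368353_at). Aqp4, the water channel of astrocyte end-feet, is read by 3 (1372190_at, 1368981_at and 1387397_at). The glutamate transporters GLT-1 and GLAST are encoded by Slc1a2, with 2 probe sets (1369693_a_at and 1369694_at), and Slc1a3, with 3 (1368565_at, 1388064_a_at and 1371130_at). Gja1 encodes the main connexin of astrocyte gap junctions and has 3 probe sets (1372002_at, 1369640_at and 1369639_at). Glul, glutamine synthetase, has 3 (1386870_at, 1367632_at and 1367633_at). Aldh1l1, a folate enzyme (1368378_at), S100b, a calcium-binding protein (1386903_at), and Aldoc, aldolase C of glycolysis (1386998_at), have 1 each. The first probe set given for a gene had its highest mean and stands for the gene wherever no other is named.

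The regions just upstream of 3 of these genes are shown because the genes ran together or apart across the rats, as described further on: Aldh1l1 and Aldoc rose and fell together, whereas the mean of Gja1 was lower, and the means of both others higher, on 14 arrays that stand apart than on the other 10 of their array group. RefSeq, on build GRCr8, gives 1 start site for each of the 3. The 250 bases before the start are printed on the strand of the gene, and capitals mark motifs. The GC box was searched as GGGCGG, the CCAAT box by the letters of its name, the TATA box as TATAAA, the AP-1 element as TGACTCA and the element of the STAT factors as TTCNNNGAA. Each was searched on both strands, and no match overlapped another.
Aldh1l1, chr4:124616970-124617219, plus strand: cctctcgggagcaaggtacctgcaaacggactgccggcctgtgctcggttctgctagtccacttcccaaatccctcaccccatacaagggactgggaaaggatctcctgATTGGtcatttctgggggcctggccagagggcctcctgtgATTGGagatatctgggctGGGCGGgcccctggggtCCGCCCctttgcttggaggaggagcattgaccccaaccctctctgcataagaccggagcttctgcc
Aldoc, chr10:63715294-63715543, plus strand: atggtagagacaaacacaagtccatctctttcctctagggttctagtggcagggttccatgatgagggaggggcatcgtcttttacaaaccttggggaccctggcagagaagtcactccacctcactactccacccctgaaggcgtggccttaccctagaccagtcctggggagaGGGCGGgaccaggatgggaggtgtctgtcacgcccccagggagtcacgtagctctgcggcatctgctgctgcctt
Gja1, chr20:36302314-36302563, plus strand: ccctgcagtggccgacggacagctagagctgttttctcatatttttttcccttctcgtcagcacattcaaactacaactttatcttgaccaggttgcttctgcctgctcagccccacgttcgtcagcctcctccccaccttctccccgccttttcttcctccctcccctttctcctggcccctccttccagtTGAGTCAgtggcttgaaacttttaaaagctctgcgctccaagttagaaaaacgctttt

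The Aldh1l1 region held 2 GC boxes and 2 CCAAT boxes, and the Aldoc region held 1 GC box, which began 75 bases before the start. The Gja1 region held neither, and 1 AP-1 element beginning 58 bases before the start. Among the regions of all 33469 starts in the table, 30.5% held a GC box, 34% a CCAAT box, 12.9% a TATA box, 4.05% an AP-1 element and 7.67% a STAT element. Over the 14 starts of the 9 members, 5 held a GC box, 5 a CCAAT box, 1 an AP-1 element and 0 a TATA box or a STAT element, the Gfap region among those with no match at all. Such matches describe the letters only.

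Before the results, a feature of the arrays has to be given, because several members, Aqp4 and Aldh1l1 most of all, differed more with it than with any dose. The first principal component of all probe sets held 58% of the variance, and clustering on it set 14 arrays apart from the other 46. The first 2 components, scaled alike, divided the arrays into a first group of 24, which includes all 14, and a second group of 36. Each dose group has 3 arrays in the first group, replicates 1 to 3, and 5 in the second. The vehicle group has 6, replicates 1 to 6, and 6. The set of 14 holds 2 vehicle arrays, 1 of deltamethrin 0.3 mg/kg, 3 of permethrin 10 mg/kg and 2 of each other dose. According to the methods, the rats were dosed on separate days, but no label ties an array to a day, so these groups were read from the data and are given as descriptions. All 8 measured markers of excitatory neurons were used to check the tissue, and their mean lay between 9.69 and 10.4 on every array. This does not show that the tissue was alike in all other cells. The mean of 5 choroid plexus markers varied more, from 7.42 to 9.63, both on arrays of the second group.

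The first question was whether either compound, at any dose, changed astrocyte genes within 6 h. None of the 9 genes differed from vehicle past the spread within dose groups. The main fit had no term for the sets of arrays, so that spread includes the differences between them. The SD of Aqp4 was 0.57 within dose groups and 0.29 over the 36 arrays of the second group. For Aldh1l1 these were 0.36 and 0.14. By limma, with p-values adjusted across the whole array (Benjamini-Hochberg), 0 of the 18 probe sets reached an adjusted p under 0.05 at any of the 6 doses, where 0% of all probe sets did so. At an unadjusted p under 0.05 the count for astrocyte genes was also 0 at each of the 6 doses. The share of all probe sets below that p was 0.751% at deltamethrin 0.3 mg/kg, 2.24% at 1 mg/kg and 1.36% at 3 mg/kg. For permethrin it was 1.18% at 1 mg/kg, 3.48% at 10 mg/kg and 1.24% at 100 mg/kg. With shares this low over the whole array, a count of 0 among 18 is no result particular to astrocyte genes.

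**Figure D1:**
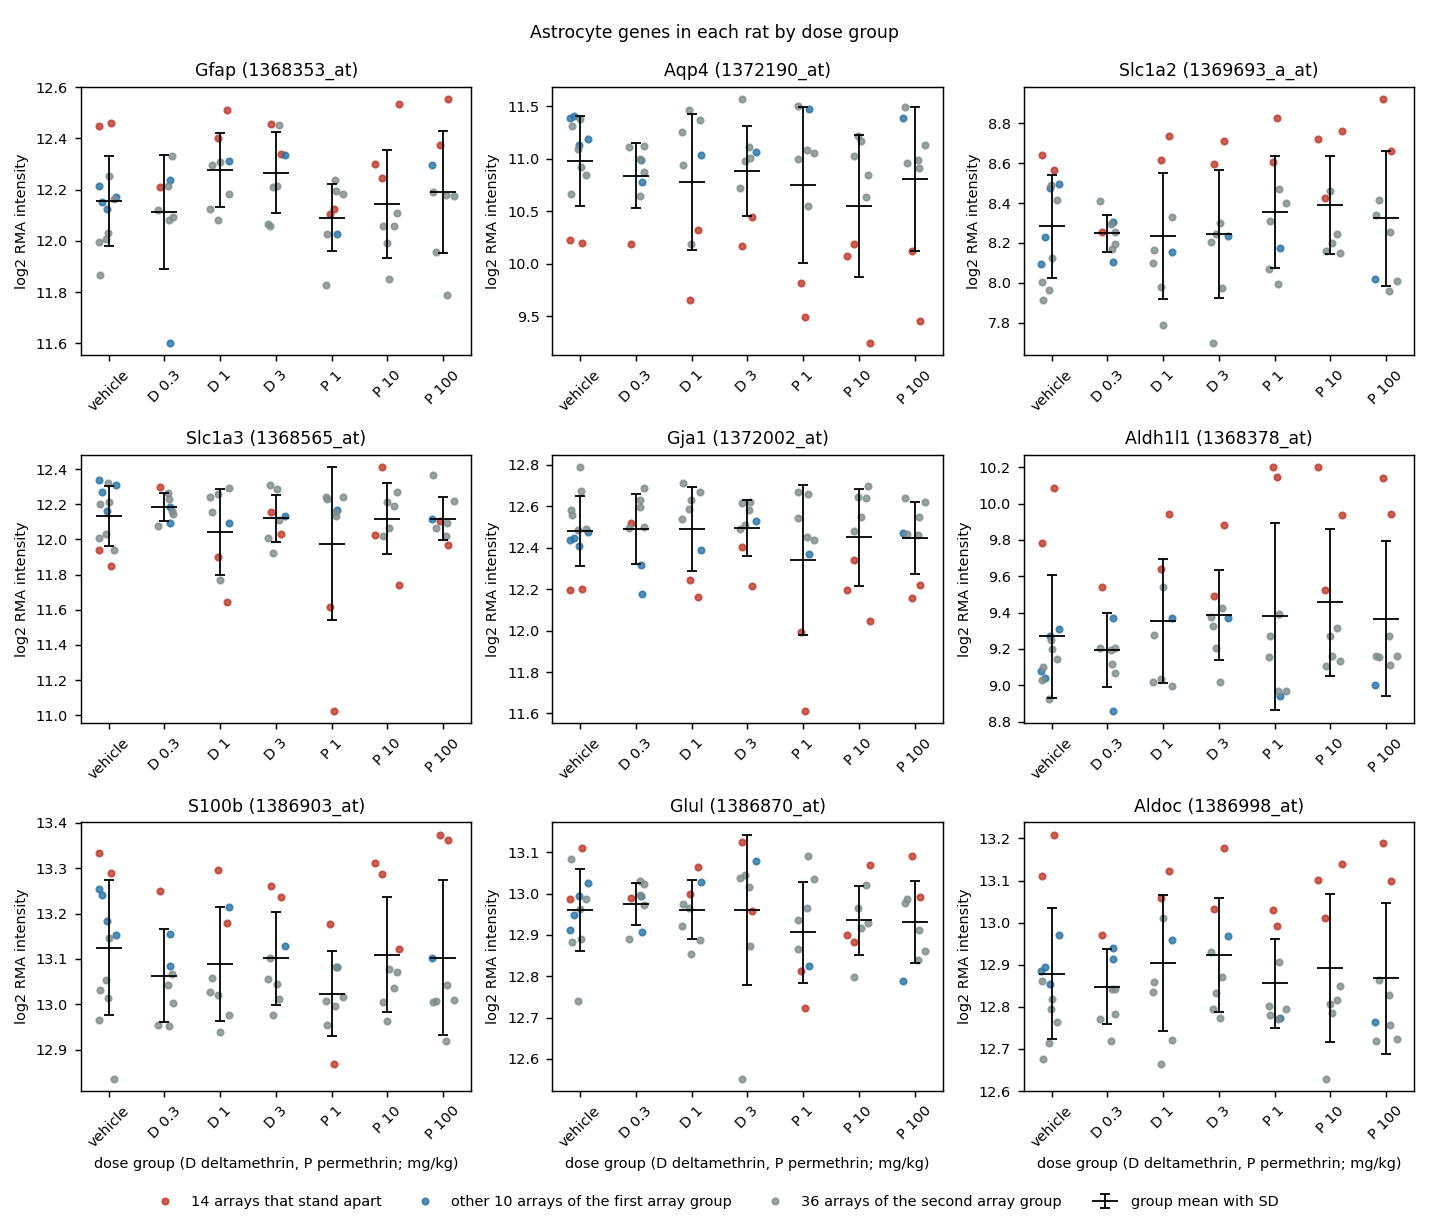
Log2 RMA intensity of each astrocyte gene (probe set in brackets) in every rat, by dose group (D deltamethrin, P permethrin, in mg/kg), with the group mean and SD in black and points coloured by set of arrays. All 6 dose groups overlap vehicle for each gene, and the 14 arrays that stand apart (red) lie above all others for Aldh1l1 in every group and below all others for Aqp4 in each group but deltamethrin 1 mg/kg.

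Gfap was level across the groups. In vehicle rats it ran from 11.87 to 12.46 with a median of 12.16. At the highest dose of deltamethrin it ran from 12.06 to 12.46 (median 12.28), and 6 of its 8 rats exceeded the mean of the vehicle rats. At 1 mg/kg the range was 12.08 to 12.51 (median 12.30), again with 6 of 8 above that mean, and at 0.3 mg/kg it was 11.60 to 12.33 (median 12.17), with 4 of 8.
Every deltamethrin group overlapped vehicle. The differences from vehicle were 0.11 ± 0.084 (SE, n = 8 against 12; 95% confidence interval −0.06 to 0.28) at 3 mg/kg and 0.12 ± 0.084 (−0.05 to 0.29) at 1 mg/kg, with limma adjusted p-values of 1.00 and 1.00. With permethrin, Gfap ran from 11.83 to 12.24 (median 12.11) at 1 mg/kg, from 11.85 to 12.53 (median 12.08) at 10 mg/kg and from 11.79 to 12.55 (median 12.19) at 100 mg/kg. The difference at 100 mg/kg was 0.03 ± 0.084 (−0.14 to 0.20).

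The largest difference of any member lay in Aqp4 at permethrin 10 mg/kg. The vehicle rats ranged from 10.20 to 11.41 (median 11.11) and the 8 treated rats from 9.24 to 11.21 (median 10.74), so the groups overlapped, with 1 treated rat at 9.24 far under the lowest vehicle value and the next 2, at 10.07 and 10.19, just under it. The difference was −0.43 ± 0.25 (95% confidence interval −0.94 to 0.08; unadjusted p = 0.0978, adjusted p = 0.961, limma). The second Aqp4 probe set gave −0.45 ± 0.24 (unadjusted p = 0.0648, adjusted p = 0.961). This group has 3 of its 8 arrays among the 14 that stand apart, against 2 of 12 for vehicle. Without those arrays the difference was −0.15 (unadjusted p = 0.326), within the first array group it was −1.09 ± 0.46 (unadjusted p = 0.0282, adjusted p = 0.462), and within the second −0.06 ± 0.18 (unadjusted p = 0.759). Leaving out replicate 2 of the treated rats alone brought it to −0.24.

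S100b had the next lowest p. At permethrin 1 mg/kg it ran from 12.87 to 13.18 (median 13.01) against 12.84 to 13.33 in vehicle (median 13.15), and 7 of 8 rats were under the vehicle mean, though within the vehicle range. The difference was −0.10 ± 0.059 (−0.22 to 0.02; unadjusted p = 0.0913, adjusted p = 1.00, limma). Within the first array group it was −0.20 ± 0.076 (unadjusted p = 0.0169, adjusted p = 0.625), and within the second 0.0034 ± 0.045 (unadjusted p = 0.940). Other members were also lower than vehicle in the first array group at this dose, with 3 treated arrays against 6. Of these, 2 of the 3 treated and 2 of the 6 vehicle arrays are among the 14 that stand apart. Replicate 2 was the lowest treated array, at 11.024 for Slc1a3 and 11.612 for Gja1. Replicate 3, which does not stand apart, was at 12.165 and 12.37, within the range of the 6 vehicle arrays. For S100b and Glul (1386870_at) replicate 3 was at 13.083 and 12.825, below the lowest of those vehicle arrays (13.153 and 12.912). For Glul 1367632_at it was at 12.685, above the lowest of them (12.663). Slc1a3 was at −0.54 ± 0.18 (unadjusted p = 0.00785), Gja1 at −0.37 ± 0.13 (unadjusted p = 0.0105), and Glul at −0.21 ± 0.067 (1386870_at, unadjusted p = 0.00564) and −0.20 ± 0.055 (1367632_at, unadjusted p = 0.00165), each with a limma adjusted p = 0.625. Together with S100b these were 5 of the 18 probe sets at an unadjusted p under 0.05, where 7.28% of all probe sets were. In the second array group 0 of the 18 reached that p, where 1.1% did, and the same probe sets stood at 0.08 (Slc1a3), −0.05 (Gja1), 0.05 and 0.0077 (Glul).

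Slc1a2, whose transporter clears glutamate, ran from 7.91 to 8.64 in vehicle (median 8.32), from 7.70 to 8.71 at deltamethrin 3 mg/kg (median 8.24) and from 7.96 to 8.92 at permethrin 100 mg/kg (median 8.30). Its differences were −0.04 ± 0.12 (−0.29 to 0.21) and 0.04 ± 0.12 (−0.21 to 0.28). The ranges of all 3 groups overlapped, with SDs of 0.26 in vehicle, 0.32 at deltamethrin 3 mg/kg and 0.34 at permethrin 100 mg/kg.
Glul, which makes glutamine, had the smallest within-group SD of the 9 genes (0.108). It ran from 12.74 to 13.11 in vehicle (median 12.97), from 12.55 to 13.13 at deltamethrin 3 mg/kg (median 13.03) and from 12.79 to 13.09 at permethrin 100 mg/kg (median 12.95). Its differences at these doses were 0.00070 ± 0.050 (−0.10 to 0.10) and −0.03 ± 0.050 (−0.13 to 0.07). A doubling of Glul, which is 1 on this scale, lies outside both intervals.

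Slc1a3, Gja1, Aldh1l1 and Aldoc gave differences of −0.01 ± 0.10, 0.02 ± 0.097, 0.12 ± 0.16 and 0.04 ± 0.067 at deltamethrin 3 mg/kg. At permethrin 100 mg/kg they gave −0.01 ± 0.10, −0.03 ± 0.097, 0.10 ± 0.16 and −0.01 ± 0.067. At the same doses Aqp4 gave −0.10 ± 0.25 and −0.17 ± 0.25, and S100b −0.02 ± 0.059 and −0.02 ± 0.059. The sign of several of these values turned under another scaling or model or without some arrays, that of Aqp4 at permethrin 100 mg/kg among them.
The third Slc1a3 probe set (1371130_at) lay higher than vehicle by 0.31 ± 0.19 and 0.32 ± 0.19 at these doses (unadjusted p = 0.118 and 0.104), while the other probe sets of that gene did not share its sign. For each of the 9 genes the widest gap between neighbours among the 7 ordered group means was smaller than the smallest within-group SD. Gaps between ordered means are small beside the SD of single rats, so this cannot show that no dose had an effect. The full span of the means exceeded the smallest SD for every gene but Aldoc, and was below the largest SD for every gene. For Aqp4 the gap was 0.20 and the span 0.43, beside SDs of 0.31 to 0.74.

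**Figure D2:**
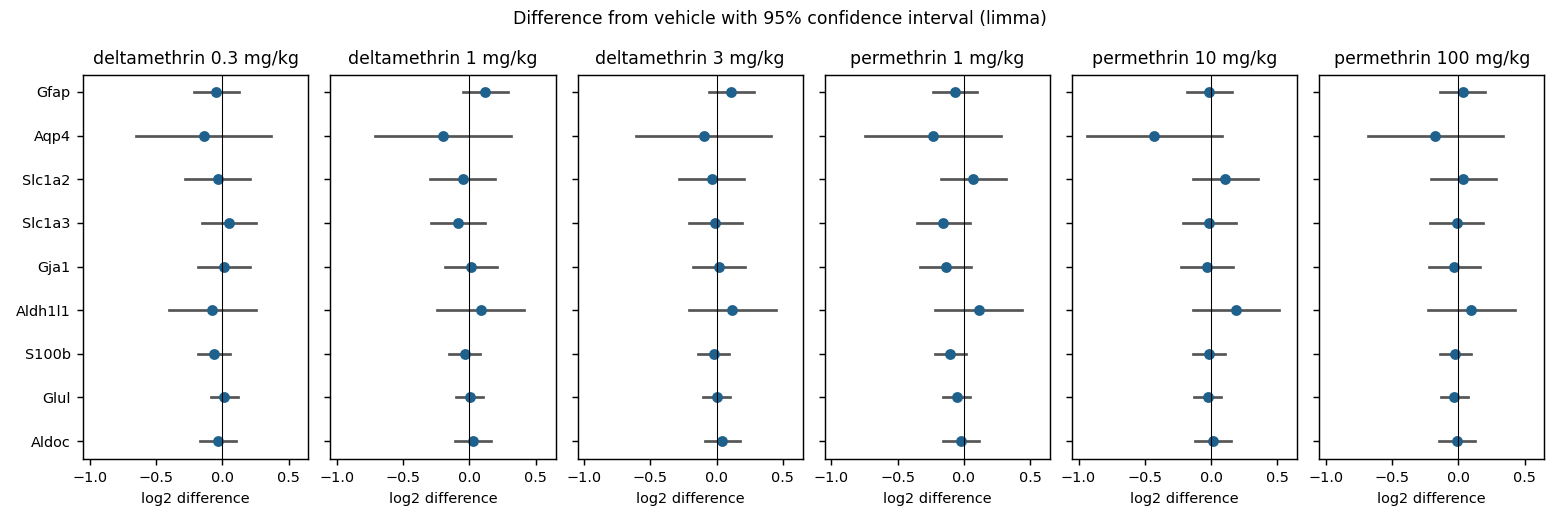
Difference from vehicle in log2 units (x axis) with its 95% confidence interval from limma, for each of the 9 genes (y axis) at each of the 6 doses. All 54 intervals include 0, and those of Aqp4 and Aldh1l1 are the widest.

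Tests over whole dose series gave the same count. No member reached an unadjusted p under 0.05 for any dose of deltamethrin or any dose of permethrin (F tests), where 0.725% and 1.23% of all probe sets did, or for a linear trend on dose, where 1.36% and 0.696% did. After adjustment, 0% of all probe sets passed in each of these 4 tests. The lowest p for a trend was that of Gfap with deltamethrin, at 0.04 ± 0.025 log2 units per mg/kg (unadjusted p = 0.0967, adjusted p = 1.00, limma). The methods screened probe sets by penalised linear regression (SAM) and penalised isotonic regression (PIR) on dose, at an empirical p under 0.01. In scores coded anew along those lines, with 100 permutations of the doses, a number chosen here, 0 of the 18 probe sets passed either screen. Of all probe sets, 0.303% passed SAM and 0.296% passed PIR for deltamethrin, and 0.087% and 0.11% for permethrin.

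The compounds shared 1 dose, 1 mg/kg, at which they can be set side by side. Gfap was higher after deltamethrin (12.08 to 12.51, median 12.30) than after permethrin (11.83 to 12.24, median 12.11), with overlap between 12.08 and 12.24. The difference was 0.19 ± 0.092 (95% confidence interval 0.0027 to 0.37; unadjusted p = 0.0468, adjusted p = 1.00, limma), and without the 14 arrays it was 0.14 (unadjusted p = 0.138). With the replicate number as a block it was 0.19 ± 0.094 (unadjusted p = 0.0514, adjusted p = 1.00, limma). Without the block, it was the only 1 of the 18 probe sets at an unadjusted p under 0.05, a level reached by 2.73% of all probe sets, and 0% passed after adjustment. The intervals of the other 8 genes included 0, from −0.06 to 0.17 for Glul to −0.53 to 0.59 for Aqp4. The study gave the compounds over different dose ranges, and this comparison is at equal mass only.

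Genes of related function, from lists chosen with earlier results of these data known, were counted by their brightest probe set. At deltamethrin 3 mg/kg and permethrin 100 mg/kg 0 genes of any list passed the adjusted test. Of 19 measured reactive astrocyte genes, 12 were higher and 7 lower at deltamethrin 3 mg/kg (median 0.03, beside 0.01 for all named genes), and 15 were higher and 4 lower at permethrin 100 mg/kg (median 0.07, beside 0.02). The only reactive gene at an unadjusted p under 0.05 was Hspb1, a small heat shock protein, with 0.54 ± 0.15 at deltamethrin 3 mg/kg (unadjusted p = 0.000601, adjusted p = 1.00, limma) and 0.36 ± 0.15 at permethrin 100 mg/kg (unadjusted p = 0.0207, adjusted p = 1.00). Hspb1 was also 0.80 higher on the 14 arrays that stand apart than on the other 10 of the first group.
Of 30 other astrocyte genes 20 were higher and 10 lower at deltamethrin 3 mg/kg (median 0.02), and 18 and 12 at permethrin 100 mg/kg (median 0.03). Gjb6, another astrocyte connexin, was at 0.25 ± 0.17 with deltamethrin, and F3, tissue factor, at −0.20 ± 0.12 with permethrin. Of 14 genes of glutamate and glutamine handling, 9 and 8 were higher (medians 0.05 and 0.05). Slc38a2, a glutamine carrier, had the lowest p of that list, at 0.16 ± 0.094 with deltamethrin (unadjusted p = 0.0917). Of 11 partners in water, potassium and gap junction transport, 5 and 6 were higher (medians −0.02 and 0.01). Among 15 glycolytic neighbours of aldolase, 14 and 9 were higher (medians 0.03 and 0.02), and of 9 relatives of S100b and Aldh1l1, 5 and 8 were higher (medians 0.05 and 0.04).
Markers of other cells were counted in the same way. At deltamethrin 3 mg/kg, 1 of 9 oligodendrocyte genes, 7 of 11 microglial genes, 5 of 10 endothelial and mural genes, 3 of 8 excitatory and 7 of 7 inhibitory neuron genes were higher, with medians from −0.03 to 0.09. Of the remaining lists, 3 of 5 oligodendrocyte precursor genes, 0 of 5 choroid plexus genes and 2 of 7 genes of meninges and fibroblasts were higher. At permethrin 100 mg/kg the counts were 1 of 9 for oligodendrocytes, 6 of 11 for microglia, 4 of 10 for endothelial and mural cells, 3 of 8 for excitatory and 5 of 7 for inhibitory neurons. They were 3 of 5 for oligodendrocyte precursors, 0 of 5 for choroid plexus and 3 of 7 for meninges and fibroblasts. Opalin, a myelin gene, was at −0.32 ± 0.13 at deltamethrin 3 mg/kg (unadjusted p = 0.0137, adjusted p = 1.00, limma), the only marker of these lists at an unadjusted p under 0.05 at either dose. No gene of these lists passed the adjusted test at either dose.

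The second question was how the astrocyte genes differed between rats. They did not move as a block. On the 14 arrays that stand apart, Aqp4 ran from 9.24 to 10.45 (median 10.15), against 10.77 to 11.47 (median 11.16) on the other 10 arrays of the first group and 10.19 to 11.57 (median 11.01) on the 36 of the second group. The 14 thus lay below the 10 without overlap, and 10 of them below each of the 46 other arrays. The mean was 1.21 lower than on the 10, a 2.32-fold lower level, and the other Aqp4 probe sets were lower by 2.05-fold and 2.97-fold.
Aldh1l1 ran the other way: 9.49 to 10.20 (median 9.94) on the 14, 8.86 to 9.37 (median 9.17) on the 10 and 8.93 to 9.54 (median 9.16) on the 36. Its mean was 0.73 higher on the 14 than on the 10, or 1.66-fold, and 11 of the 14 exceeded every other array.

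**Figure D3:**
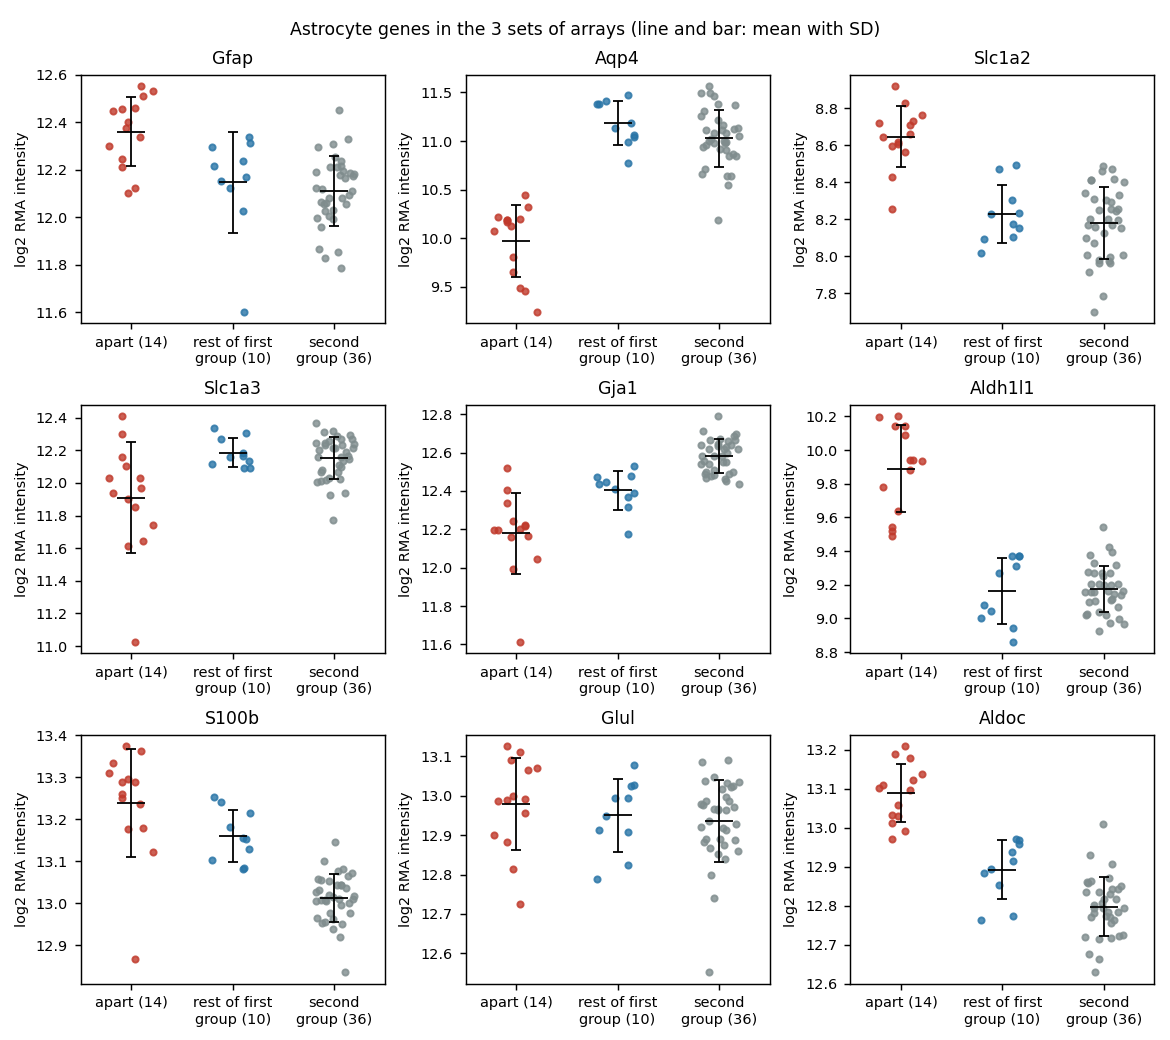
Log2 RMA intensity of each astrocyte gene in every rat, by set of arrays: the 14 that stand apart, the other 10 of the first array group and the 36 of the second, with the mean and SD of each set. Aqp4 is lowest and Aldh1l1 highest on the 14, while Glul covers about the same range in all 3 sets.

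The other genes fell between these. Slc1a3 and Gja1 were lower on the 14 than on the 10 by 0.28 and 0.22. Slc1a2, Gfap and Aldoc were higher by 0.42, 0.21 and 0.20, and S100b and Glul by 0.08 and 0.03. So 3 of 9 genes were lower and 6 higher (66.7%, median 0.08), beside a median of 0.14 over all named genes, of which 70.1% were higher. In the second group, compared with the 10, Gja1 was 0.18 higher, Aqp4 and S100b were each 0.15 lower, and the other 6 genes lay between 0.09 lower (Aldoc) and 0.01 higher (Aldh1l1). Gja1 had means of 12.18 on the 14 (11.61 to 12.52), 12.40 on the 10 (12.18 to 12.53) and 12.58 on the 36 (12.44 to 12.79), so the ranges of the 3 sets overlapped.

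Of 30 other astrocyte genes, 22 were higher and 8 lower on the 14 arrays than on the 10, with a median of 0.31. The share higher, 73.3%, was near the 70.1% of all named genes. Slc4a4, a bicarbonate transporter, was 1.14 lower and Fabp7, a fatty acid binding protein, 0.95 lower, whereas Agt, angiotensinogen, was 0.94 higher and Entpd2, an ectonucleotidase, 0.92 higher. These 4 were picked by the size of the difference, after their values were seen. Other cell types moved as well: 10 of 11 microglial markers were higher (median 0.58), with a list mean of 8.23 to 8.89 on the 14 and 7.91 to 8.29 on the 10, and 9 of 10 endothelial and mural markers were higher (median 0.33). Of 9 oligodendrocyte markers 4 were higher (median −0.0039), and of 8 excitatory neuron markers 3 were (median −0.06). The part of these cells, or of any feature of RNA or scan, in the astrocyte values was not tested.

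The probe sets of a gene did not always follow each other across the arrays. Those of Aqp4 did: within the second group, after removal of dose group means, they correlated pairwise at r = 0.78 to 0.87. For Slc1a2 the pair correlated at r = 0.80 there, yet 1369693_a_at was 0.42 higher and 1369694_at 0.15 lower on the 14 arrays than on the 10. For Slc1a3, 1368565_at and 1388064_a_at were lower by 0.28 and 0.49 whereas 1371130_at was higher by 0.36. Between the 10 and the second group, 1388064_a_at was 0.48 lower and 1371130_at 0.80 higher in the second group. The latter correlated with the others at r = −0.07 and −0.26 in the second group. Of the Gja1 probe sets, 1372002_at correlated with 1369640_at at r = 0.21 and with 1369639_at at r = −0.46. The Glul probe sets 1386870_at and 1367633_at followed each other closely (r = 0.94), and 1367632_at less so (r = 0.48 and 0.55). These are descriptions across 36 arrays normalised together; where in its transcript each probe set lies was not analysed here.

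To see which genes varied together from rat to rat, all 36 pairs of the 9 genes were correlated. Dose group means were removed first, except in the sets of 10 and 14 arrays of the first array group, where they were left in. The first array group consists of separate clusters, so the values are given within sets of arrays. In the 36 rats of the second group 21 pairs correlated positively and 15 negatively, with a median r of 0.06. By permutation within dose groups and adjustment over the 36 pairs, 5 pairs passed with both coefficients. Aqp4 and Aldoc went in opposite directions (r = −0.73, rho = −0.71; permutation p = 4e-05 each, adjusted p = 0.00144 each). Aqp4 and Slc1a3 rose and fell together (r = 0.66, rho = 0.54; adjusted permutation p = 0.0099 and 0.0275). So did Aldh1l1 and Aldoc (r = 0.61, rho = 0.50; adjusted permutation p = 0.0119 and 0.0404).
The remaining pairs were Slc1a3 with Gja1 (r = 0.50, rho = 0.52; adjusted permutation p = 0.0156 and 0.0214), and Slc1a2 with Glul, the transporter that clears glutamate and the enzyme that uses it (r = 0.57, rho = 0.55; adjusted permutation p = 0.0215 and 0.0278).

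**Figure D4:**
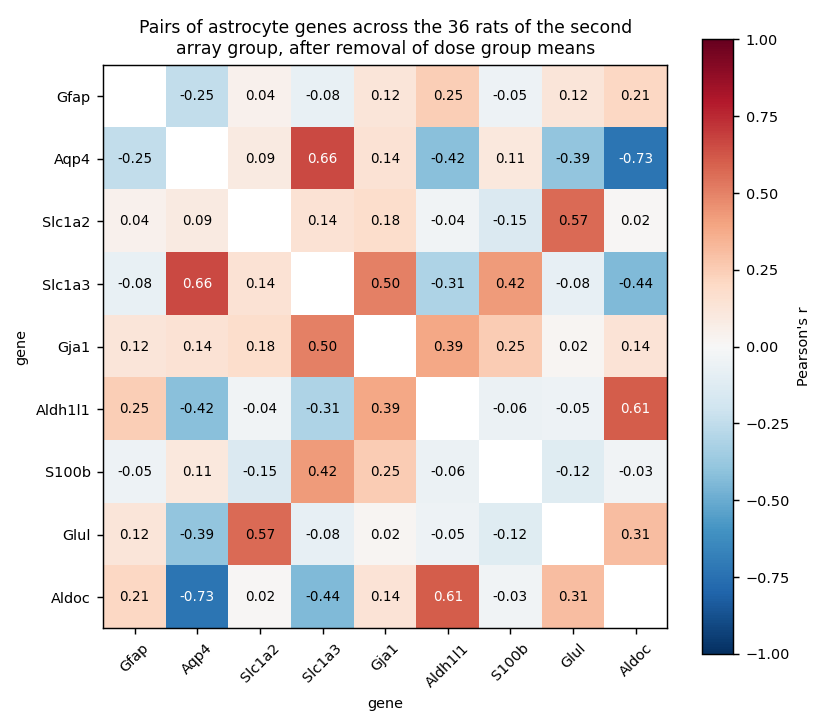
Pearson's r for every pair of the 9 genes over the 36 rats of the second array group, after removal of dose group means (red positive, blue negative). Aqp4 with Aldoc is the most negative pair at −0.73 and Aqp4 with Slc1a3 the most positive at 0.66.

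Without the 2 rats farthest from the median of the first-named gene, the 5 pairs gave r = −0.61, 0.54, 0.44, 0.59 and 0.47 in the order above. In the 10 other arrays of the first group the same pairs gave r = −0.62, 0.49, 0.65, 0.37 and 0.62, and in the 14 arrays 0.20, 0.49, 0.44, 0.92 and 0.0011. Dose group means were left in for these sets of 10 and 14, unlike in the second group. The signs thus held in all 3 sets for 4 pairs, Slc1a2 with Glul being near 0 in the 14, while Aqp4 with Aldoc was positive in the 14. Gfap was in none of the 5 pairs, and its r with the other 8 genes in the second group lay between −0.25 and 0.25.

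The first principal component ran through several of these pairs. In the second group Aqp4 correlated with it at r = −0.89, Aldoc at 0.73, Slc1a3 at −0.60 and Aldh1l1 at 0.51, whereas S100b, Gja1 and Slc1a2 stood at −0.10, −0.13 and −0.18. After the component was also removed from the values, Aqp4 with Aldoc gave r = −0.09, Aqp4 with Slc1a3 0.30 and Aldh1l1 with Aldoc 0.37, whereas Slc1a3 with Gja1 gave 0.54 and Slc1a2 with Glul 0.65. What the component stands for was not tested.

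**Figure D5:**
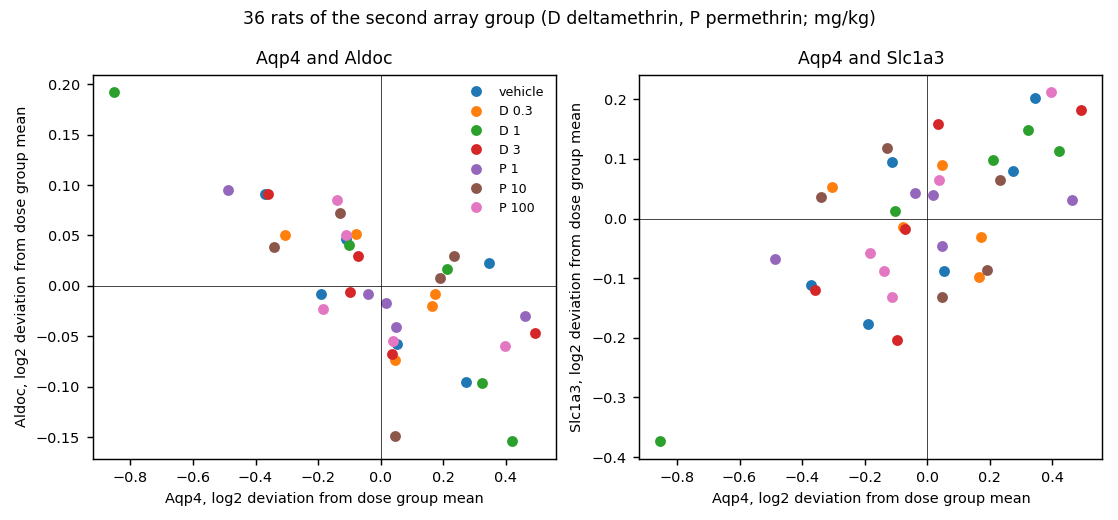
Log2 deviation from the dose group mean of Aqp4 (x axis) against that of Aldoc (left) and Slc1a3 (right) in the 36 rats of the second array group, coloured by dose group. Aldoc falls and Slc1a3 rises with Aqp4, and 1 rat given deltamethrin at 1 mg/kg lies at the far left of both panels.

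The probe sets whose deviations were most like the mean of the 9 genes, over all 60 arrays after removal of the means of each dose group within each array group, were those of Rpl14, a ribosomal protein (r = 0.68), Svip (r = 0.65), Rbx1, a ubiquitin ligase subunit (r = 0.64), Nutf2, a nuclear transport factor (r = 0.63), and Marcks, a substrate of protein kinase C (r = 0.63). In the second group alone, whose arrays are among the 60 used to pick them, the 5 gave r between 0.62 and 0.76. None of them is on the list of astrocyte genes, and the 9 members themselves correlated with their own mean at r = 0.05 (Aldoc) to 0.56 (Slc1a3).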

How the data were processed

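Total RNA from the frontal cortex of each rat was hybridised to its own Affymetrix rat genome array, without pooling. The authors deposited 1 table of log2 intensities made by RMA (version not given in the labels), with 60 columns and values from 3.75 to 14.10. Array medians lay between 7.07 and 7.20. Symbols came from the platform annotation: 20826 probe sets had 1 symbol, 436 several and 9780 none. Members and gene lists were chosen with earlier results of these data known. All members are named, and the probe set with the highest mean stands for the gene.

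Groups followed the labels. The deposited log2 values were fitted with limma 3.58.1 (R 4.3.3) over all 60 arrays, without a replicate block. Same-numbered rats deviated together throughout (r = 0.38 to 0.85, 8 of 8 pairs) only between the compounds at 1 mg/kg, where the blocked value is also given. The p-values were adjusted by Benjamini-Hochberg over all 31042 probe sets. Pairs of genes were correlated with 100000 permutations within dose groups (scipy 1.17.1, numpy 2.4.6). Array groups came from 2-means clustering of the first 2 principal components, and the arrays that stand apart from the first alone. The alternatives were a replicate block, array group as a block, the first component as a covariate, only the arrays compared, a filter on dim probe sets, median centring, linear values, another variance prior, dose ranks, and leaving out each rat. Leaving out the arrays that stand apart, array group together with the component, and correlations by set of arrays were added after seeing the data. Code was tested on simulated data. No 2 arrays were alike enough to be 1 sample deposited again (highest correlation 0.9975).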

Additional observations from a re-analysis of the deposited data

Results flagged for a closer look

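The 18 probe sets were searched for an array lying far from the other 7 of its dose group, in 108 groups of 8. Chance alone flags about 1 in 20 such groups, and 5 values were flagged. The Glul values below came from 1 array, by probe sets that correlated at r = 0.94 in the second array group. Gfap stood at 11.60 in replicate 2 of deltamethrin 0.3 mg/kg, where the other rats lay between 12.08 and 12.33. Glul stood at 12.55 (1386870_at) and 11.29 (1367633_at) in replicate 4 of deltamethrin 3 mg/kg, where the others lay between 12.87 and 13.13 and between 11.98 and 12.26. The Aqp4 probe set 1387397_at stood at 6.77 in replicate 1 of deltamethrin 0.3 mg/kg, beside 7.78 to 8.55, and at 5.49 in replicate 2 of permethrin 10 mg/kg, beside 7.22 to 8.41. Both of those Aqp4 arrays are among the 14 that stand apart.

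Whether a dose effect differed between the array groups was tested for the 18 probe sets at 6 doses by an interaction term in limma. Of 108 tests 11 had an unadjusted p under 0.05 and 0 an adjusted p under 0.05 (lowest adjusted p = 0.381). At permethrin 1 mg/kg there were 6 of 18, where 10.6% of all probe sets had such a p: Slc1a3 (1368565_at and 1388064_a_at, p = 0.00114 and 0.00602), Glul (1367632_at and 1386870_at, p = 0.00674 and 0.00884), S100b (p = 0.0122) and Gja1 (1372002_at, p = 0.0130). The limma adjusted p of these 6 was 0.392 to 0.422. At permethrin 10 mg/kg there were 3, all probe sets of Aqp4 (p = 0.0183 to 0.0272; adjusted p = 0.381), where 13% of all probe sets had such a p. The others were Gfap at deltamethrin 0.3 mg/kg (p = 0.0135, beside 0.97% of all) and the Slc1a3 probe set 1371130_at at deltamethrin 3 mg/kg (p = 0.0432, beside 0.606% of all). The first array group, with 3 arrays of each dose, holds all 14 arrays that stand apart.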

How the results depend on the processing

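In each of the 11 comparisons fitted with limma, 0 of the 18 probe sets had an adjusted p under 0.05 under every alternative, with any 1 rat left out, and 0 passed the SAM or PIR screens on linear values or dose ranks. At most 11 probe sets of the whole array passed under any of them. The number of pairs of genes past the adjusted threshold was 19 over all 60 arrays with the means of dose groups within array groups removed, 31 with dose group means alone removed and 5 in the second array group alone.

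The labels give all groups the replicate numbers 1 to 8, which follow the array groups. Of 168 same-numbered pairs 112 deviated together at r above 0.1, the rest lower, down to −0.82. Of 336 best matches in another group 92 had the same number. With no association 42 would, but this ignores the array groups, so 92 does not show pairing. In 1 of 21 pairs of groups, the 2 compounds at 1 mg/kg, 8 of 8 pairs were above 0.1 (0.38 to 0.85). In both groups replicates 1 and 2 stand apart, 3 is in the rest of the first array group and 4 to 8 in the second. Same-numbered arrays there thus share their set of arrays, and whether the rats were paired was not tested. With a replicate block 0 of 18 probe sets passed an adjusted p under 0.05 in any comparison. For replicates 4 to 6 this block sets vehicle arrays of the first array group beside treated arrays of the second. Blocked differences from vehicle thus also carry array group differences. At an unadjusted p under 0.05 there were 3 at each deltamethrin dose (2.87%, 4.16% and 3.19% of all probe sets from the lowest dose up) and 2, 3 and 2 for permethrin (7.93%, 5.84% and 6.24%). These were Slc1a3 (1371130_at) at each dose but permethrin 1 mg/kg, Gja1 (1369639_at) at deltamethrin 0.3 and 3 and permethrin 1 and 100 mg/kg, S100b at deltamethrin 0.3 and 1 and permethrin 1 mg/kg, Slc1a3 (1388064_a_at) at deltamethrin 1 and 3 and permethrin 10 mg/kg, and Aqp4 (1368981_at) at permethrin 10 mg/kg. Their adjusted p was 0.417 to 1.00 (limma), and between the compounds at 1 mg/kg there were 0 (3.93% of all). In the order named, the means of these probe sets in the second array group differed by 0.80, 0.21, −0.15, −0.48 and −0.07 from those on the arrays of the first group that do not stand apart. How far this enters the blocked differences was not tested. Under the block, Glul and Aldoc at deltamethrin 3 mg/kg turned to −0.017 and −0.0013, and Slc1a2 and Gja1 at permethrin 100 mg/kg to −0.040 and 0.0091.

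Of 23 single differences examined, 12 changed sign under at least 1 of the 10 alternatives other than leaving out a rat. With array group as a block, Gja1 and S100b at deltamethrin 3 mg/kg became −0.023 and 0.00047, and S100b and Aldoc at permethrin 100 mg/kg became 0.0017 and 0.015. With the first component as a covariate, Slc1a3 and Glul at deltamethrin 3 mg/kg became 0.0014 and −0.0012, and Slc1a2, Slc1a3 and Gja1 at permethrin 100 mg/kg became −0.0068, 0.022 and 0.0098. With both together, Slc1a3 and Glul at deltamethrin 3 mg/kg became 0.014 and −0.0010, and Slc1a3 at permethrin 100 mg/kg became 0.038. With medians centred, Slc1a3 became 0.0034 and 0.00012 at these doses and Aldoc 0.0018 at permethrin 100 mg/kg. Without the arrays that stand apart, Glul at deltamethrin 3 mg/kg became −0.0082, and Gfap, Aqp4, Slc1a2 and Gja1 at permethrin 100 mg/kg became −0.00034, 0.012, −0.054 and 0.00020. The cause was not tested.

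With 1 rat left out, the sign also turned for differences that ranged at deltamethrin 3 mg/kg from −0.19 to 0.0051 (Aqp4), −0.10 to 0.040 (Slc1a2), −0.038 to 0.017 (Slc1a3), −0.0092 to 0.056 (Gja1) and −0.023 to 0.059 (Glul). At permethrin 100 mg/kg the ranges were −0.020 to 0.090 (Gfap), −0.27 to 0.019 (Aqp4), −0.047 to 0.090 (Slc1a2), −0.048 to 0.0088 (Slc1a3), −0.057 to 0.011 (Gja1), −0.012 to 0.17 (Aldh1l1), −0.061 to 0.0040 (S100b) and −0.057 to 0.019 (Aldoc). The number of arrays, 8 rats a dose, limits the precision of these values.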
